A study of Mus musculus with 6 samples.

Results

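The 45 cell cycle genes described here were taken by symbol from the 55487 genes of an RNA-seq table of mouse molar epithelium. They fall into 7 G1 cyclins and kinases, 4 inhibitors of cyclin-dependent kinases (CDK), 14 replication genes of S phase and 20 mitotic genes of G2/M. Epithelium was taken from the mandibular first molar (M1) for sequencing at postnatal day 2.5 (PN2.5), in 3 control libraries from *Wnt10a* fl/fl mice and 3 cKO libraries from *K14-Cre;Wnt10a* fl/fl mice. Both groups carried the floxed *Wnt10a* alleles and the control mice carried no Cre. In cKO mice the keratin 14 promoter drove Cre in keratin 14-expressing epithelia in general, not in the tooth alone. Each library was a pool of molars, of 5 by the methods and 4 by the deposited design text, and the replicates were labelled biological. The values are TPM (transcripts per a fixed total of transcripts, a level per unit of transcript length), from which sequencing depth cannot be recovered, so no counting error can be given. *Wnt10a* itself was 56.0, 51.2 and 57.9 TPM in the control libraries against 22.7, 21.8 and 32.2 TPM in the cKO libraries.

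A dividing cell passes from G1, when D-type cyclins with CDK4 or CDK6 and then E-type cyclins commit it to division, through DNA replication in S phase to mitosis. Inhibitors of the Cip/Kip and INK4 families hold the kinases back, and in many epithelia they are high where cells leave the cycle to differentiate. In the developing molar, dividing cells lie in the inner enamel epithelium and in the cervical loop that becomes Hertwig's epithelial root sheath (HERS), while ameloblasts that secrete enamel matrix no longer divide. The comparison addresses how deletion of epithelial *Wnt10a* bears on proliferation, which the study examined by EdU labelling and cyclin D1 staining in HERS. It also stained Ki67 in grafted molars. By EdU and cyclin D1, the study reported a decrease in inner enamel epithelial cells of HERS in the furcation region. It found no significant difference in the outer enamel epithelial cells there. In RNA from the whole dissected epithelium, fewer dividing cells and less RNA per dividing cell cannot be told apart.

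Few of the 45 genes met the study's unadjusted criteria for a difference between the groups, and none differed after adjustment for the number of genes tested. *Cdk4*, the kinase partner of the D-type cyclins, *Mcm3*, a subunit of the replicative helicase, and *Tyms*, the thymidylate synthase that makes dTMP for DNA, were higher in cKO by the criteria of the study's methods, which ask for an unadjusted p below 0.05 and means that differ by over 20% of the control mean. No member was lower by these criteria. All 45 members passed the minimum of 1 TPM on average and were tested with limma on log2(TPM + 1) with all 13719 genes that passed it, a scale that understates changes of low genes. The 3 members that were higher (6.67% of the members) stand beside 1.55% of all tested genes, and the 0 that were lower beside 2.47%. With p adjusted over the whole table, no member fell below 0.05 (limma, Benjamini-Hochberg, lowest adjusted p 1.00), against 0.0146% of all tested genes. An unadjusted limma p below 0.05, in either direction, was reached by 3 of the 45 members, beside 552 of the 13719 tested genes. The log2 fold change of cKO against control was above 0 in 35 of 45 members, and in 39.7% of all tested genes, with medians of 0.26 and -0.07.

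**Figure D1:**
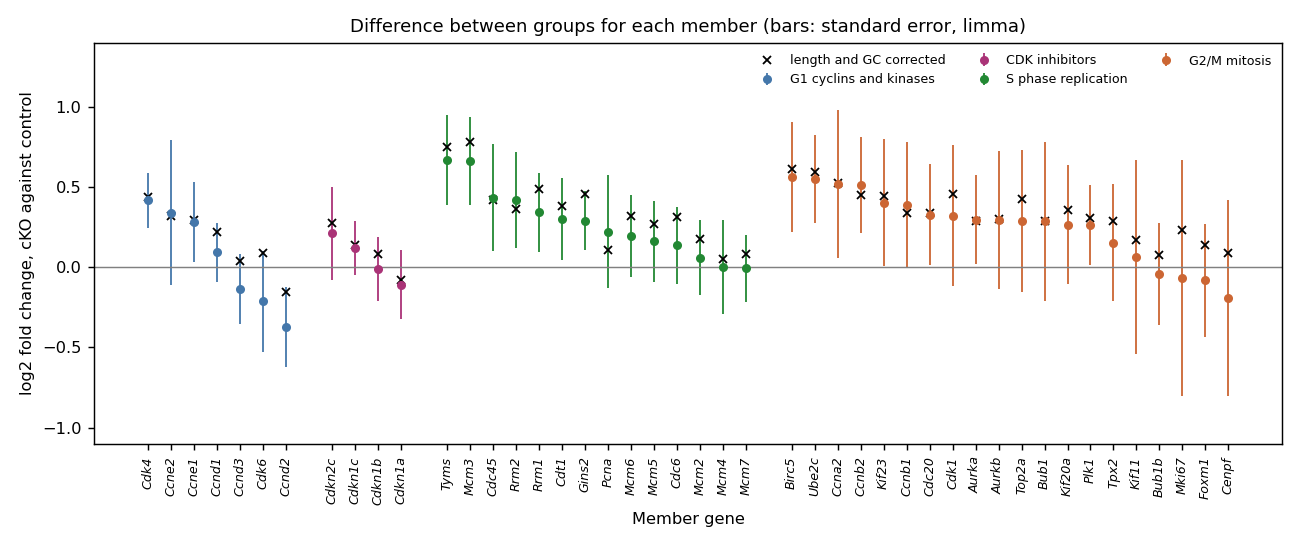
Log2 fold change of cKO against control on the log2(TPM + 1) scale for each of the 45 members, grouped by phase, with bars for the standard error from limma and crosses for the value corrected for the length and GC content of the transcript. *Tyms* and *Mcm3* stand highest in S phase and *Cdk4* in G1, and most mitotic genes have bars that reach or nearly reach 0.

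The libraries differed more than the groups did, and the mitotic genes most of all. The 20 G2/M members summed to 272, 272 and 177 TPM in control 1, 2 and 3 and to 296, 498 and 178 TPM in cKO 1, 2 and 3. Thus cKO 2 stood above all others, and control 3 and cKO 3 stood lowest and almost level. The 14 S phase members summed to 248, 229 and 188 TPM in the control libraries against to 271, 367 and 197 TPM in the cKO libraries, in the same order except for control 1 and control 2. The 7 G1 members had sums of 294, 249 and 275 TPM in control against 315, 370 and 281 TPM in cKO, where *Cdk4* made up most of the level. The summed TPM of the 4 CDK inhibitors, mostly *Cdkn1a*, ran differently, with 583, 545 and 616 TPM in control against 491, 493 and 704 TPM in cKO, and cKO 3 highest. In the mean of log2(TPM + 1) over the 4 genes, which *Cdkn1a* does not dominate, cKO 2 was highest at 6.07 and control 3 lowest at 5.82. Between libraries of the same number, the G1, S phase and G2/M sums were each higher in cKO, at number 3 by little. The inhibitor sums were higher in cKO only at number 3. The highest library exceeded the lowest by a median of 3.06-fold over the G2/M members, 2.01-fold over the S phase members, 1.87-fold over the G1 members and 1.60-fold over the inhibitors, beside 1.91-fold over all tested genes.

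Counted gene by gene, cKO 2 was the highest of the 6 libraries for 40 of the 45 members, among them all 14 S phase and all 20 G2/M members, while it was highest for 25.1% of all tested genes. The lowest library was control 3 or cKO 3 for 32 of the 45 members and for 17 of the 20 G2/M members, beside 48.6% of all tested genes. Within cKO the libraries went apart. cKO 1 lay above every control library for 18 members (11.7% of all tested genes), whereas cKO 3 lay below every control library for 16 members (28.5%) and above every one for 4 (14.0%). cKO 2 also had the lowest ameloblast marker sum. The 7 ameloblast markers, all detected, summed to 96153 TPM in cKO 2 and to between 191285 and 208556 TPM in the other cKO libraries, against 200230 to 239330 TPM in control, and none of the 7 met the criteria. Because *Amelx* and *Ambn* alone took 19.1% to 23.9% of the TPM of the other 5 libraries and 9.52% of cKO 2, the TPM were also rescaled to protein-coding genes without these genes. The rescaled G2/M sum remained highest in cKO 2, at 646 TPM against 264 to 388 TPM in the control libraries, and the rescaled S phase sum was 476 TPM against 280 to 352 TPM. The part of cell composition in these sums was not tested.

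**Figure D2:**
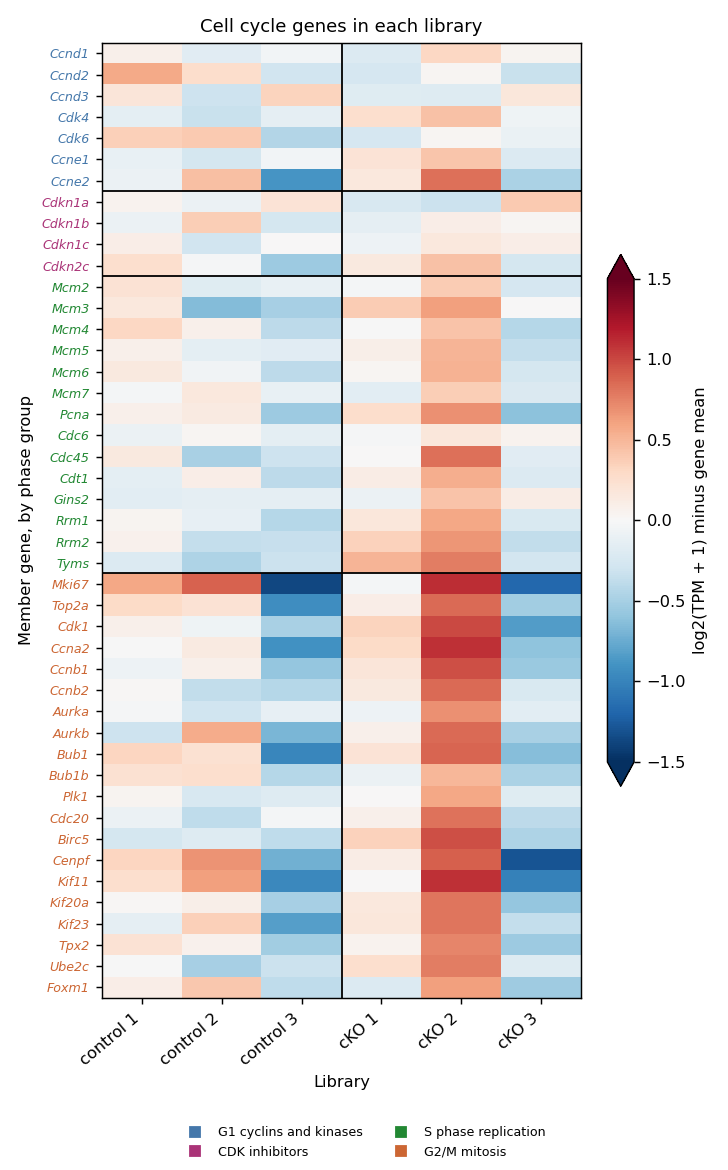
Level of each of the 45 members (rows, coloured by phase) in each of the 6 libraries (columns), as log2(TPM + 1) minus the mean of that gene over the libraries. The column of cKO 2 is high through S phase and G2/M, and the columns of control 3 and cKO 3 are low in most G2/M rows.

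The dissected tissue held markers of epithelium and of its neighbours. The 11 epithelial markers, among them *Krt14* and *Cdh1*, were all detected and summed to 6453 to 9121 TPM in control and 6006 to 8483 TPM in cKO, with 1 lower by the criteria. The 20 markers of dental mesenchyme and bone were also detected, at 4092 to 7960 TPM in control against 5632 to 6085 TPM in cKO, with 1 higher. The 8 endothelial markers summed to 81.8 to 128 TPM in control against 63.9 to 93.8 TPM in cKO, with 3 lower. Of 10 erythroid markers, 9 were in the table and 1 was at 0 in every library, and their sums were 1328 to 1979 TPM in control against 1161 to 1284 TPM in cKO, with 1 lower. The immune, skeletal muscle, and nerve and glial lists held no gene that met the criteria, and their sums did not exceed 86.2, 7.58 and 139 TPM. These other cell types can also hold dividing cells, and their part in the levels of the 45 members was not tested.

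The promoters of the members were searched for motifs known from cell cycle genes, with no test of a link to the levels. Promoters from 250 bases before to 50 after the transcription start were found for 34 of the 45 members (38 promoters) in the RefSeq table of GRCm38.p6. No entry was given for *Ccnd1*, *Ccnd2*, *Ccne2*, *Cdkn1c*, *Mcm4*, *Gins2*, *Ccna2*, *Aurkb*, *Kif20a*, *Tpx2* and *Foxm1*. Both strands were searched for the CHR element (cell cycle genes homology region, TTTGAA with its reverse TTCAAA, or TTCGAA), through which MuvB complexes act on mitotic genes, for the CCAAT box of NF-Y (CCAAT or ATTGG), and for an E2F motif (TTTNNCGC or GCGNNAAA). A CHR match lay in 13 of 15 G2/M promoters (86.7%), 3 of 13 S phase promoters (23.1%) and none of the 5 G1 or the 5 inhibitor promoters, beside 19.2% of all 32851 promoters in the table. A CCAAT match lay in 14 of 15 G2/M promoters and 10 of 13 S phase promoters (76.9%), beside 37.4%, and both matches together in 13 of 15 G2/M promoters beside 7.52%. An E2F match lay in 7 of 13 S phase promoters (53.8%) but in 1 of 15 G2/M promoters (6.67%), beside 5.17%. Of the G2/M members with an entry, *Birc5* held neither a CHR nor a CCAAT match and *Ccnb1* held a CCAAT match without CHR. S phase and G2/M promoters thus both held CCAAT matches above the share of all promoters, while their shares of CHR and E2F matches differed. Whether any motif goes with the levels in cKO 2 was not tested. Such matches describe letters in a window, and they were not tested as binding sites.

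**Figure D3:**
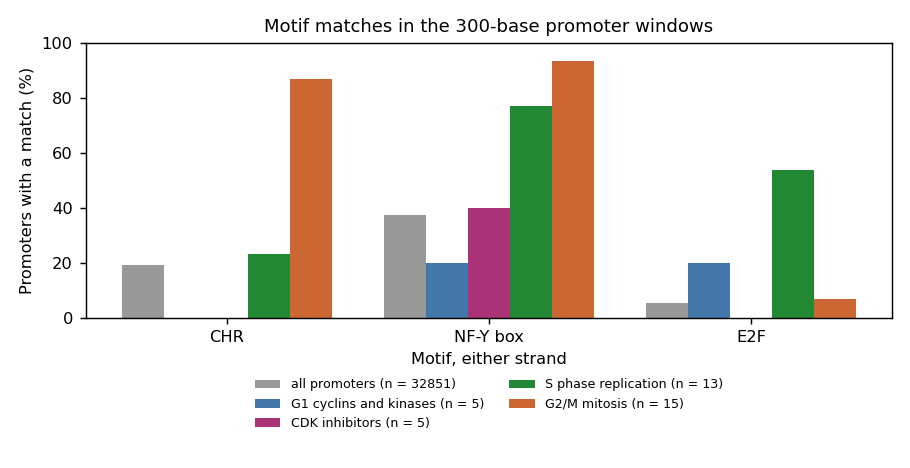
Share of promoters, in percent, with at least 1 match to the CHR element, the CCAAT box (NF-Y box) or the E2F motif on either strand, for all promoters of the table (grey) and for each phase group. The G2/M bars stand highest for the first 2 motifs and the S phase bar for E2F.

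Promoter stretches of 150 bases, from 120 before the start to 30 after it, are shown for the 3 members that met the criteria and for members that carry the S phase and the G2/M arrangement of motifs, with every match in capitals. *Cdk4* (chr10:127063415-127063564, plus strand) and *Tyms* (chr5:30073596-30073745, minus strand) held no match in this stretch, and the only match in the full *Tyms* window, to E2F, began 42 bases into the transcript.
*Cdk4*: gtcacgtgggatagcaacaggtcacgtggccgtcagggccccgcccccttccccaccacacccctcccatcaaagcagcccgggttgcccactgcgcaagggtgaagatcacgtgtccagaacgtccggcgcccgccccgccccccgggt
*Tyms*: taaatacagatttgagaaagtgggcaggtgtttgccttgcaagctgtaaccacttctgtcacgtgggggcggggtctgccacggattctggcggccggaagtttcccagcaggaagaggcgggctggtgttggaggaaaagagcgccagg
In *Mcm3* (chr1:20820283-20820432, minus strand) and *Mcm6* (chr1:128359676-128359825, minus strand), the capitals mark CCAAT boxes and E2F motifs, of which 2 overlap in the first capital run of *Mcm6*.
*Mcm3*: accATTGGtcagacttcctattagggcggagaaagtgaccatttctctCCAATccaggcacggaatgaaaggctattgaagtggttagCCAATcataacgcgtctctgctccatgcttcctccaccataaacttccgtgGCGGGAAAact
*Mcm6*: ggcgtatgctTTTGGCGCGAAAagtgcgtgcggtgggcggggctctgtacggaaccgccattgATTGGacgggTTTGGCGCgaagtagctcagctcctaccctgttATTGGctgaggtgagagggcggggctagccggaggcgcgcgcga
In the mitotic genes *Ccnb2* (chr9:70421525-70421674, minus strand), *Cdc20* (chr4:118437314-118437463, minus strand) and *Ube2c* (chr2:164769809-164769958, plus strand), the capitals mark CCAAT boxes and, near the start, the CHR element, which began at position 5 of the transcript in *Ccnb2* and at -18 and -29 from the start in *Cdc20* and *Ube2c*.
*Ccnb2*: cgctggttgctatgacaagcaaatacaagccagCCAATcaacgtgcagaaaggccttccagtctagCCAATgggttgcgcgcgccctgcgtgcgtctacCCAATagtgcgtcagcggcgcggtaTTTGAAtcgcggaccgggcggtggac
*Cdc20*: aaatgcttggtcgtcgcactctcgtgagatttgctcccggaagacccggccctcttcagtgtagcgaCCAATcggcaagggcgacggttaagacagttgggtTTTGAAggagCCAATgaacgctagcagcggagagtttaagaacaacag
*Ube2c*: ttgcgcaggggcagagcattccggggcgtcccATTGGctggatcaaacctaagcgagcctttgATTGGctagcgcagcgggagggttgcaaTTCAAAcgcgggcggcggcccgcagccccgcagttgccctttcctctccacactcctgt

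Among the G1 genes, *Ccnd1* encodes cyclin D1, whose protein the study stained. *Ccnd1* was 39.4, 32.8 and 36.0 TPM in control against 32.1, 46.2 and 38.3 TPM in cKO, so that the groups overlapped, with the lowest and the highest library both in cKO. Its mean was 36.1 ± 3.30 TPM in control against 38.9 ± 7.05 TPM in cKO (SD, n = 3), a log2 fold change of 0.09 with a 95% interval from limma of -0.34 to 0.53. The value was -0.04 without cKO 2 and 0.22 after correction for length and GC content. *Ccnd2*, a D-type cyclin that is often a target of growth signals, was 40.4, 32.5 and 21.8 TPM in control against 22.3, 27.5 and 21.1 TPM in cKO. Its control libraries spread over almost the whole range, control 3 lying among the cKO libraries. The log2 fold change of -0.37 (standard error 0.25) was the lowest of the G1 members and had an unadjusted limma p of 0.179. Without control 3 it was -0.61 with an unadjusted limma p of 0.0246, the only setting tried in which a member was called lower, and after the length correction it was -0.15. *Ccnd3* ranged from 26.2 to 41.6 TPM over both groups with a log2 fold change of -0.14.

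*Cdk4* had the highest level of the G1 group. It was 169, 148 and 171 TPM in control against 224, 256 and 179 TPM in cKO, so that every cKO library lay above every control library (exact permutation, two-sided, p = 0.1, below which 3 against 3 libraries cannot go). The cKO mean of 220 ± 38.7 TPM was 1.35 times the control mean of 163 ± 12.6 TPM (SD, n = 3), with a log2 fold change of 0.42 (standard error 0.17), an unadjusted limma p of 0.0457 and an adjusted p of 1.00. With each library left out in turn the log2 fold change lay between 0.30 and 0.56, and it kept an unadjusted p below 0.05 only without cKO 3. *Tspan31* overlaps the end of *Cdk4* on the opposite strand by 641 bases at a mean of 67.6 TPM, and whether reads were counted by strand is not given in the sources used here. *Cdk6*, the other partner of the D-type cyclins, had the lowest mean of the G1 group. It was 2.11, 2.17 and 0.79 TPM in control against 1.03, 1.47 and 1.26 TPM in cKO, and its log2 fold change of -0.21 turned to 0.09 after the length correction, its longest transcript being 11525 bases. The E-type cyclins that drive entry into S phase were low, *Ccne1* at 2.28 to 4.27 TPM and *Ccne2* at 1.04 to 5.69 TPM, with log2 fold changes of 0.28 and 0.34 and unadjusted limma p of 0.291 and 0.474.

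None of the 4 CDK inhibitors met the criteria. *Cdkn1a*, which encodes p21, had the highest level of all 45 members, at 450, 408 and 499 TPM in control against 368, 348 and 569 TPM in cKO. cKO 1 and cKO 2 lay below the control libraries and cKO 3 above them, so the log2 fold change of -0.11 (standard error 0.22) averages libraries on both sides, and it was 0.02 without cKO 2. *Cdkn1b* (p27) ranged from 49.7 to 77.7 TPM and *Cdkn1c* (p57) from 51.1 to 69.9 TPM, with log2 fold changes of -0.01 and 0.12. *Cdkn2c*, which encodes the INK4 inhibitor p18, was the lowest of the group and varied more. It was 10.02, 8.08 and 5.30 TPM in control against 9.17, 11.5 and 6.67 TPM in cKO, with the numbered libraries 3 lowest in both groups and a log2 fold change of 0.21 (standard error 0.29). The median log2 fold change was 0.05 over the 4 inhibitors and 0.09 over the 7 G1 members.

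Of the 14 S phase genes, 2 met the criteria. cKO 1 lay above every control library for 8 of the 14, cKO 2 for all 14 and cKO 3 for 2. The shares over all tested genes were 11.7%, 29.0% and 14.0%. *Tyms* was 17.3, 14.3 and 15.9 TPM in control against 29.1, 34.9 and 16.5 TPM in cKO. cKO 1 and cKO 2 stood far above the control libraries, while cKO 3 lay within them (exact two-sided permutation test, p = 0.2). The means were 15.8 ± 1.49 and 26.8 ± 9.44 TPM (SD, n = 3), 1.70-fold apart, with a log2 fold change of 0.67 (standard error 0.28), an unadjusted limma p of 0.0485 and an adjusted p of 1.00. *Mcm3* was 16.04, 8.75 and 9.89 TPM in control against 18.9, 22.4 and 14.3 TPM in cKO, again with an overlap, here of control 1 with cKO 3 (exact two-sided permutation test, p = 0.2). The means of 11.6 ± 3.92 and 18.6 ± 4.04 TPM (SD, n = 3) gave a log2 fold change of 0.66 (standard error 0.27), an unadjusted limma p of 0.0455 and an adjusted p of 1.00. Left out in turn, any library but cKO 3 took *Tyms* past an unadjusted p of 0.05, and any but control 1 or cKO 3 did so for *Mcm3*. Without cKO 2, the log2 fold changes were 0.45 and 0.52.

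The other MCM subunit genes had smaller values than *Mcm3*. MCM2 to MCM7 form a hexamer with 1 copy of each subunit, and the other 5 subunit genes had log2 fold changes from -0.01 in *Mcm7* to 0.20 in *Mcm6*, with unadjusted limma p between 0.469 and 0.996. After the length and GC correction their values ran from 0.05 in *Mcm4* to 0.32 in *Mcm6*, against 0.78 in *Mcm3*. Whether *Mcm3* differed from the other 5 was not tested. *Mcm7*, the highest of the 6 on average, was 25.0, 28.7 and 23.7 TPM in control against 23.0, 33.3 and 21.9 TPM in cKO, with cKO libraries at both ends. The mean over all libraries was 25.9 TPM for *Mcm7*, 17.2 for *Mcm6*, 15.1 for *Mcm3*, 13.5 for *Mcm5*, 9.88 for *Mcm2* and 7.67 for *Mcm4*. *Mcm7* overlaps *Cops6* and *Ap4m1* on the opposite strand by 64 and 421 bases.

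*Gins2*, a subunit of the GINS complex that travels with the helicase, was the second member whose groups did not overlap, beside *Cdk4*. It was 22.0, 22.4 and 22.3 TPM in control against 23.1, 33.5 and 26.7 TPM in cKO, the control libraries lying close together (exact two-sided permutation test, p = 0.1, the smallest p possible). Its log2 fold change of 0.29 (standard error 0.18) came with an unadjusted limma p of 0.153, and after the length and GC correction 0.45 (standard error 0.13) with an unadjusted limma p of 0.00962. The 2 members that lay apart and higher in cKO stand beside 3.51% of all tested genes, and the 0 apart and lower beside 6.13%. *Gins2* lies within the annotated gene *Gm20388*, on the opposite strand, at a mean of 31.4 TPM for the latter.

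*Pcna*, the sliding clamp of replication and the most abundant S phase member, was 62.4, 65.1 and 40.3 TPM in control against 71.3, 96.2 and 38.2 TPM in cKO. The numbered libraries 3 were low in both groups, and the log2 fold change of 0.22 had a 95% interval of -0.61 to 1.06. *Cdc6*, a loader of the helicase, was the lowest, at 1.13, 1.32 and 1.06 TPM in control against 1.25, 1.56 and 1.35 TPM in cKO, with a log2 fold change of 0.14. Its partner in licensing, *Cdt1*, which shares its strand with *Gm20388*, ranged from 6.74 to 13.9 TPM, and *Cdc45*, which activates the helicase, from 2.18 to 6.89 TPM. The ribonucleotide reductase genes *Rrm1* and *Rrm2*, which make deoxynucleotides, ranged from 20.4 to 41.8 and from 6.80 to 15.0 TPM. The log2 fold changes of these 4 genes lay between 0.30 and 0.43, with unadjusted limma p between 0.203 and 0.276. The median over the 14 S phase members was 0.26, and 13 of 14 values were above 0. Without cKO 2, 8 of 14 were above 0 and the median was 0.09, beside -0.16 over all tested genes.

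In the main fit, of all 6 libraries as deposited and without a replicate block, no mitotic gene met the criteria. The groups overlapped in all 20 cases. Some alternative fits, with and without a block, called mitotic genes, as given below. *Mki67*, which encodes the proliferation antigen Ki-67, was 15.8, 19.8 and 3.39 TPM in control against 10.1, 23.3 and 4.00 TPM in cKO. Control 3 and cKO 3 lay far below the other 4 libraries. The log2 fold change of -0.07 had a 95% interval of -1.79 to 1.66 in the main fit, which spans changes of several fold either way. That interval counts the low level shared by the libraries numbered 3 as spread. With the replicate block the log2 fold change was the same, and its unadjusted limma p was 0.763 against 0.932 in the main fit. *Top2a*, a topoisomerase that untangles chromosomes and a common proliferation marker, was 28.8, 27.4 and 11.8 TPM in control against 25.4, 43.2 and 16.03 TPM in cKO, with a log2 fold change of 0.29 and a 95% interval of -0.75 to 1.33. It was -0.07 without cKO 2.

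*Cdk1*, the kinase that starts mitosis, had the highest level of the G2/M group. It was 40.2, 36.4 and 26.9 TPM in control against 48.3, 76.8 and 20.9 TPM in cKO, so that cKO held both the highest and the lowest libraries. Its log2 fold change was 0.32 (standard error 0.44), and it was 0.82 without cKO 3 and -0.09 without cKO 2. Its cyclins *Ccna2*, *Ccnb1* and *Ccnb2* had log2 fold changes of 0.52, 0.39 and 0.51 with unadjusted limma p of 0.298, 0.353 and 0.129. *Birc5*, which encodes survivin of the chromosomal passenger complex, had the largest positive value of the group. It was 21.1, 22.3 and 19.5 TPM in control against 32.8, 51.2 and 18.3 TPM in cKO, with cKO 1 and cKO 2 above and cKO 3 below all control libraries. The log2 fold change of *Birc5* was 0.56 (standard error 0.34) with an unadjusted limma p of 0.144. *Cenpf*, a kinetochore protein gene with a longest transcript of 11130 bases, had the lowest mean and the most negative value. It was 3.25, 4.44 and 1.07 TPM in control against 2.68, 5.34 and 0.38 TPM in cKO, a 14.1-fold range over the libraries, with a log2 fold change of -0.19 (standard error 0.61).

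Of the other regulators and motors of mitosis, *Ube2c*, the ubiquitin-conjugating enzyme of the anaphase-promoting complex, came closest to the threshold. It was 29.8, 20.96 and 23.9 TPM in control against 35.9, 52.0 and 26.1 TPM in cKO, where cKO 3 lay below control 1, with a log2 fold change of 0.55 (standard error 0.27) and an unadjusted limma p of 0.0818. The complex's activator *Cdc20* was 13.1 to 31.9 TPM, and the mitotic kinases *Aurka*, *Aurkb* and *Plk1* were 4.50 to 9.87, 6.19 to 19.9 and 6.04 to 11.4 TPM. Their log2 fold changes were 0.33, 0.30, 0.30 and 0.26. The spindle checkpoint kinase genes *Bub1* and *Bub1b* were 0.98 to 6.13 and 4.81 to 10.4 TPM, with log2 fold changes of 0.29 and -0.04. The spindle genes *Kif11*, *Kif20a*, *Kif23* and *Tpx2* had values of 0.06, 0.26, 0.40 and 0.15, and *Foxm1*, a transcription factor for mitotic genes, had -0.08. In *Kif20a* the overlap with *Cdc23*, on the opposite strand, covers 2327 bases, and in *Ccna2* that with *Exosc9* covers 863 bases. The median over the 20 members was 0.29 with 16 above 0. It was -0.06 with 9 above 0 without cKO 2, and 0.61 with 20 above 0 without cKO 3. The medians over all tested genes were then -0.16 and -0.002.

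**Figure D4:**
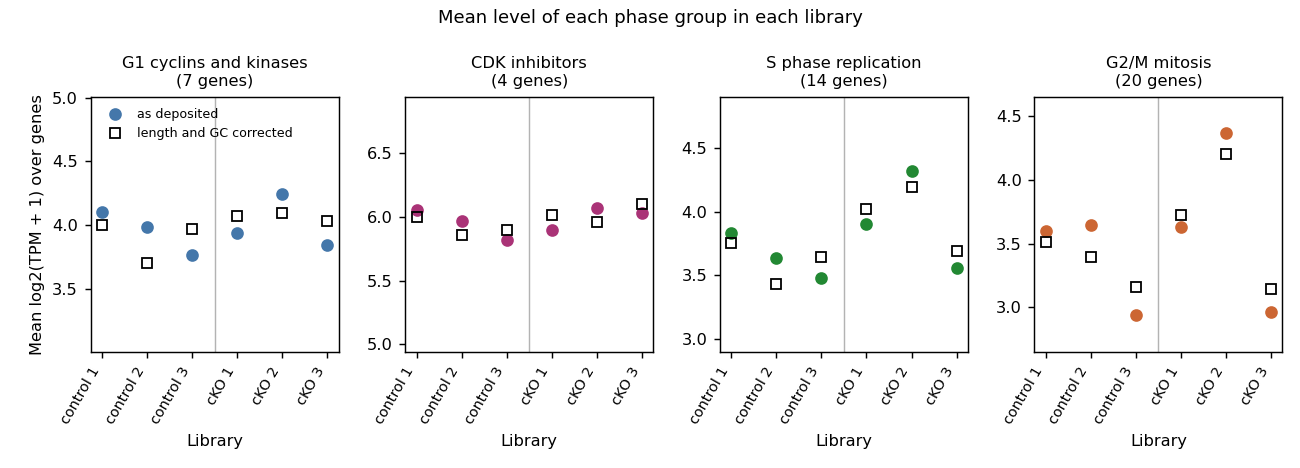
Mean of log2(TPM + 1) over the genes of each phase group in each of the 6 libraries, as deposited (filled) and corrected for transcript length and for GC content (open squares), on panels of equal height. In G2/M the values run from 2.94 in control 3 to 4.37 in cKO 2 as deposited and from 3.14 in cKO 3 to 4.21 in cKO 2 after the correction.

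Part of the spread of the mitotic genes went with the length of their transcripts. Over 12188 protein-coding genes, the deviation of a library from the gene mean had a rank correlation with transcript length of 0.34, 0.52 and -0.26 in control 1, 2 and 3 and of -0.32, -0.06 and -0.28 in cKO 1, 2 and 3. Over the 20 G2/M members the values were 0.74, 0.70 and -0.59 in control and -0.15, 0.28 and -0.75 in cKO. Genes share their library in these correlations, which are a description. Control 3 and cKO 3 were thus low above all for long mitotic transcripts such as *Mki67* (10061 bases) and *Cenpf*. When each library was corrected for length and GC content, the mean G2/M level of control 3 went from 2.94 to 3.16 and that of cKO 3 from 2.96 to 3.14 on the log2 scale, and cKO 2 remained highest at 4.21. The S phase mean was then 3.75, 3.43 and 3.65 in control and 4.02, 4.19 and 3.69 in cKO.

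**Figure D5:**
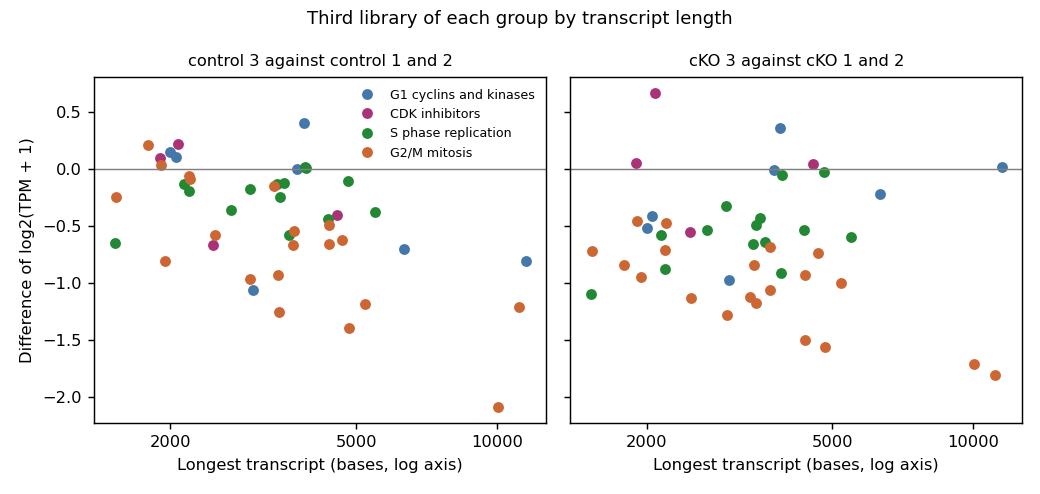
Difference of log2(TPM + 1) between the library numbered 3 and the mean of libraries 1 and 2 of the same group (vertical axis) against the length of the longest transcript on a log axis, for the 45 members, control left and cKO right. Among G2/M genes the difference is lowest for the long transcripts of *Mki67* (10061 bases) in control and of *Mki67* and *Cenpf* (11130 bases) in cKO.

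After the correction, 5 members met the criteria, all higher in cKO, beside 2.44% of 13707 genes, and 0 were lower, beside 2.08%. These were *Cdk4*, *Mcm3*, *Tyms*, *Gins2* and *Rrm1*, with corrected log2 fold changes of 0.44, 0.78, 0.75, 0.45 and 0.49. The correction used the longest annotated transcript of each gene, which need not be the expressed form. For *Rrm1* this transcript has 5475 bases and 1 exon. The corrected value was above 0 in 43 of 45 members, the exceptions being *Ccnd2* and *Cdkn1a*, and the medians were 0.22 in G1, 0.11 for the inhibitors, 0.34 in S phase and 0.32 in G2/M. When cKO 2 was left out as well, 36 of 45 were above 0, the medians of S phase and G2/M were 0.21 and 0.10, and *Gins2* alone met the criteria. Without the correction and without cKO 2, the G2/M and S phase medians were -0.06 and 0.09, beside -0.16 over all tested genes.

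Cell cycle genes outside the 45 were also highest in cKO 2 for the most part in S phase and G2/M. Of 28 further G1 control genes 26 were tested, with a median log2 fold change of 0.01. The 56 further S phase genes had a median of 0.17 and the 80 further G2/M genes one of 0.13. Without cKO 2 the G1 control, S phase and G2/M medians were -0.14, -0.10 and -0.12, beside -0.16 over all tested genes. The library cKO 2 was highest for 42 of the 56 and 69 of the 80, and a library numbered 3 was lowest for 46 and 69. *Cks1b*, a small subunit of cyclin-dependent kinases, and *Cenpm*, a centromere protein gene, met the criteria. These 2 of the 162 tested genes are 1.23%, beside the 1.55% of all tested genes, and 0 met them in the lower direction, beside 2.47%. *Cks1b* was 38.3, 33.3 and 34.8 TPM in control against 50.9, 66.4 and 39.8 TPM in cKO, and *Cenpm* was 3.09, 3.65 and 3.43 TPM in control against 4.90, 6.96 and 5.03 TPM in cKO. The groups lay apart in both, with log2 fold changes of 0.52 and 0.58 and unadjusted limma p of 0.0421 and 0.0313. *Pole* and *Rfc2*, which encode a replicative polymerase subunit and a clamp loader subunit, also lay apart and higher in cKO, and *Cdc25a*, *Cdkn2b* and *Cit* apart and lower, without meeting the criteria. In all, 4 of the 162 lay apart and higher (2.47%) and 3 apart and lower (1.85%), both below the 3.51% and 6.13% of all tested genes.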

How the data were processed

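RNA-seq of M1 dental epithelium was analysed in 3 control and 3 cKO libraries, grouped by genotype label. By the methods, the authors used SeqPrep and Sickle for trimming, HISAT2 for alignment and RSEM for gene abundance, and the submitters' processing notes name HISAT2 and StringTie. The authors deposited 1 TPM value per gene and library. The methods name FPKM, but each library sums to between 983952 and 993946. The genome build and the handling of strand are not given in the sources used here. Of the gene identifiers, 99.53% were in GENCODE M21 (GRCm38), used for the length and GC content of the longest annotated transcript of each gene.

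From the TPM, log2(TPM + 1) was computed for genes that averaged 1 TPM or more and tested with limma 3.58.1 in R 4.3.3 (eBayes with trend, no block), with Benjamini-Hochberg adjustment over all genes. The script was tested on simulated data. TPM keep no depth, and the number of libraries limits precision. The p-values measure the spread between these pools.

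The 45 members, the lists and the tests were chosen with earlier results of these data known. Values in every library are given for *Ccnd1*, *Mki67*, *Pcna*, *Top2a*, the highest and lowest mean and the largest positive and negative log2 fold change of each phase, and members that met the criteria or lay apart, and, of the other cell cycle genes, those that met the criteria. *Ube2c*, *Pole*, *Rfc2*, *Cdc25a*, *Cdkn2b* and *Cit* were named after their values were seen. Alternatives were a pseudocount of 0.1, no filter, no minimum difference, quantile, median-ratio and rescaled normalization, natural splines (4 degrees of freedom) for length and GC content, the replicate block, no trend, Student's test on the TPM, and leaving out each library. Leaving out both libraries numbered 3, and cKO 2 after correction, were chosen after seeing the data. Staining, histology and qRT-PCR data were not analysed here.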

Additional observations from a re-analysis of the deposited data

How the results depend on the processing

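No member reached an adjusted p below 0.05 in any of the 18 alternative fits (limma or Student's test, Benjamini-Hochberg). The count of members that met the criteria, 3 as reported, was 1 without the filter on low values, 5 after quantile normalization, 5 after length and GC correction, 5 when the fit held a replicate block, 9 when it held that block plus the correction, 0 without the mean-variance trend, 0 with Student's test on the TPM, and 1 with the correction and cKO 2 left out. It was 3 with a pseudocount of 0.1, 4 after median-ratio and 2 after rescaled normalization, and 4 without both libraries numbered 3. With each library left out in turn it ranged from 0 to 8. It was 0 without control 2, cKO 1 or cKO 2, beside 369, 204 and 282 of all 13719 tested genes. It was 1 without control 1 or control 3, beside 237 and 1159 genes, and 8 without cKO 3, beside 951 genes. The count of members called lower ranged from 0 to 1. Over all genes, 552 met the criteria, against 940 without the filter, 1315 under the replicate block, 1110 under block plus correction, 521 without the trend, 459 with Student's test, 204 to 1159 with 1 library left out, 1220 without both libraries numbered 3 and 361 with the correction and cKO 2 left out. The 552 split into 213 higher and 339 lower, against 324 and 325 after quantile, 314 and 334 after median-ratio and 104 and 651 after rescaled normalization, and 334 and 285 after the correction. Dropping the minimum difference changed neither count. Of all genes 2 had an adjusted p below 0.05, against 4 with a pseudocount of 0.1, 1 without the filter, 4 after quantile normalization, 0 after rescaling (755 at an unadjusted p below 0.05), 4 with the block, 1 with the block and correction, 0 with Student's test (544 at an unadjusted p below 0.05), 2 to 9 with 1 library left out, 19 without both libraries numbered 3, and 5 with the correction and cKO 2 left out.

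Replicates share their numbers across groups, as do the deposited columns, and the methods call them pairs without saying what pairs them. Correlations of same-numbered deviations over all tested genes were -0.08, 0.29 and 0.40 (0.26, 0.62 and 0.68 over the 45 members). Control 2 and control 3 correlated best with the cKO library of their own number. Control 1 correlated best with cKO 2, at only 0.06. Because control 1 and cKO 1 did not go together over all tested genes, the numbers were not taken to pair the libraries in the main fit. These correlations cannot settle whether the libraries were paired. The blocked fit added the mitotic genes *Ccna2* and *Kif23* to the members called, both higher in cKO, and the blocked fit with the correction called *Ube2c* as well. Mitotic genes were also called, all higher in cKO, in fits without a block. These were *Ube2c* and *Ccnb2* after quantile and *Ube2c* after median-ratio normalization. Without cKO 3 they were *Ube2c*, *Birc5*, *Cdk1* and *Ccnb2*, and without both libraries numbered 3 *Ube2c* and *Birc5*.

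Several log2 fold changes turned their sign, some near 0 in the main fit and others not, such as *Cdk1* at 0.32 and *Top2a* at 0.29. *Mki67* was 0.040 after quantile and 0.00083 after median-ratio normalization and 0.23 after the correction with or without the block, and ranged from -0.76 to 0.51 with 1 library left out. *Mcm7* was 0.085, 0.058 and 0.082 in the same order, 0.043 without both libraries numbered 3, and -0.19 to 0.10 with 1 left out. *Cenpf* was 0.088 after the correction with or without the block, 0.0066 without both libraries numbered 3, and -0.69 to 0.41 with 1 left out. *Cdk6* was 0.086 after the correction with or without the block and 0.17 with cKO 2 also left out, where *Pcna* was -0.058 and *Cdkn1a* 0.095. With 1 library left out, *Ccnd1* ranged from -0.035 to 0.22, *Pcna* from -0.067 to 0.59, *Top2a* from -0.11 to 0.62, *Cdkn1a* from -0.33 to 0.022, *Cdkn2c* from -0.011 to 0.40 and *Cdk1* from -0.092 to 0.82. The cause was not tested. *Cdk4*, *Tyms*, *Mcm3*, *Gins2*, *Birc5* and *Cdc6* were higher in cKO and *Ccnd2* lower under all 18 alternatives. Some of the 18 could not change a sign. No filter, the replicate block, no trend and Student's test carry the log2 fold change of the main fit, and the block with the correction carries that of the correction. Tests planned for counts were not run, since the table holds TPM.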

Other observations

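Of the 162 tested cell cycle genes outside the 45 members, 4 lay apart and higher in cKO and 3 apart and lower, shares below those of all tested genes, and 3 of the 7 are given here as values. *Pole*, the catalytic subunit of DNA polymerase epsilon, was 8.80, 9.01 and 7.26 TPM in control against 9.61, 12.6 and 10.7 TPM in cKO, with an unadjusted limma p of 0.110. *Cdkn2b*, which encodes the INK4 inhibitor p15, was 3.87, 4.41 and 3.71 TPM in control against 2.45, 2.75 and 3.17 TPM in cKO, with -0.40 as its log2 fold change and an unadjusted limma p of 0.0989. *Cit*, which encodes the cytokinesis kinase citron, was 1.53, 3.02 and 1.47 TPM in control against 0.58, 1.05 and 1.11 TPM in cKO, with -0.63 as its log2 fold change and an unadjusted limma p of 0.0775. *Cdkn2b* and *Cit* were thus lower in every cKO library, including cKO 2, in which most cell cycle genes were highest. These 3 genes were chosen after their values were seen, and the adjusted p of each was 1.00.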
